A study of Mus musculus with 2 samples.

Results

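Imprinted genes are transcribed mainly or only from the copy inherited from 1 parent. The copies are told apart by DNA methylation laid down in the egg or the sperm. Many of them act on growth before birth and are turned down afterwards, and several set how readily precursor cells become fat cells. Genes transcribed from the paternal copy often favour growth and those from the maternal copy often restrain it, although the members described here include exceptions. The genes described here are the 10 rows of the deposited table whose symbols are H19, Meg3, Rian, Dlk1, Peg3, Mest, Cdkn1c, Plagl1, Grb10, and Zim1, out of 24091 genes. They were chosen by symbol as imprinted genes with roles in fat and growth, and all 10 were found.

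The samples were 2 libraries of polyadenylated RNA from C57BL/6 mice, labelled as primary adipocytes, 1 from sham-irradiated mice (the sham library) and 1 from mice given pelvic radiation (the irradiated library), which the labels describe as 7.5 Gy and 5 days without saying whether this was the daily or the total dose. Gonadal fat was taken 2 months after radiation, dissociated with collagenase, and the floating cells were cultured for 3 days. Both titles also name PBS, whose role the labels do not explain. The comparison asks how the level of each gene in the cultured floating fraction of gonadal fat from irradiated mice differed from that of sham-irradiated mice. With 1 library per condition and no statement of how many mice gave each, no difference had a replicate check, no test was possible, and no p-value is given. The mice are of 1 inbred strain and the table gives 1 value per gene, so the values sum over both parental copies and do not show which copy was transcribed.

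The libraries held about 30600000 and 35000000 fragments, sham first, as recovered from the values. Of 10 markers of mature adipocytes, 5 had an FPKM of 1 or more in a library (FPKM counts the fragments for each kilobase of a gene and each 1000000 fragments of the library), and Lep, the gene of the fat-cell hormone leptin, had 0 and 2 fragments and Adipoq, that of adiponectin, 5 and 10, while all 10 fibroblast and progenitor markers reached it. The summed FPKM of the fibroblast and progenitor list was 3680 and 2983, with 5 of 10 genes higher after radiation. That of the mesothelial list was 30.9 and 41.3 with 6 of 7 higher. For the macrophage list it was 579.6 and 617 with 6 of 8 higher. The endothelial list gave 40.4 and 43.8 with 4 of 6 higher, and the adipocyte list 301.4 and 344.7 with 8 of 10 higher. Of all 24091 genes, 9440 were higher, and of the 11253 that reached an FPKM of 1 in a library, 6020 were. Single genes weigh heavily in the summed FPKM, among them Col1a1 (1937 and 1428) and Cd36 (117.7 and 160.8). In the sham library, Lyz2 (442.5 and 410) made up most of the macrophage sum and Wt1 (20.43 and 18.67) most of the mesothelial sum. Both were lower after radiation, while the median log2 difference was 0.485 in the macrophage and 1.35 in the mesothelial list. Cd68, of the macrophage list, had 59.2 and 96.9. Among markers of muscle cells, a tissue in which several imprinted growth genes are known to be active, Myod1, Myog, Myf5, and Ckm had no fragments in either library and Pax7 had 0 and 1, while the actin gene Acta1 had 27 and 110, and 3 of the 7 genes of that list were higher. In Myod1, 3 fragments would have given an FPKM of 0.053 in the sham library. Of 8 gonadal and germ cell markers, 3 were higher and 3 lower, with a summed FPKM of 23 and 32.3. Nearly all of that sum came from Inhbb (20.15 and 25.36) and Star (2.345 and 6.627), both higher. The levels of Lep and Adipoq go against libraries made up mainly of mature adipocytes, as the label has it, but the adipocyte list was mixed. Beside Cd36, the FPKM was 96.9 in both libraries for Fabp4 and 68.0 and 66.6 for Lpl. It was 13.45 and 14.42 for Cebpa and 4.59 and 4.69 for Pparg. The share of mature adipocytes cannot be given from this list. In bulk RNA, fewer cells of a type and less RNA per cell cannot be told apart, and the part of these marker differences in the results was not tested.

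Among the 10 members, 4 are hosts of microRNAs: the noncoding RNAs H19, Meg3, and Rian, and the coding gene Mest. A script matched 7 microRNA hairpins in RefSeq (GRCm38.p6) to the spans of these genes on the same strand, giving 13 mature sequences with 13 different seeds. A polyadenylated library does not measure the mature forms, so the sequences show what the host transcripts carry and not what was measured. Both arms of 1 hairpin per host are given 5′ to 3′, with the seed, bases 2 to 8, in capitals.
miR-675-5p (host H19): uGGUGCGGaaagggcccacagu
miR-675-3p (host H19): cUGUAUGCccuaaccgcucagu
miR-770-5p (host Meg3): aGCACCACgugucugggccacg
miR-770-3p (host Meg3): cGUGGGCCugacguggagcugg
miR-370-5p (host Rian): cAGGUCACgucucugcaguu
miR-370-3p (host Rian): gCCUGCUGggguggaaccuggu
miR-335-5p (host Mest): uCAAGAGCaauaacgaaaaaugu
miR-335-3p (host Mest): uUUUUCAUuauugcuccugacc

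The 10 genes spanned a wide range of levels, and Grb10 was the most abundant in both libraries. Its FPKM of 48.07 in the sham library was above that of 95.2% of all genes and 892-fold that of Zim1, the lowest, at 0.0539. In the sham library the order was Grb10, Rian (7.42), H19 (5.92), Mest (5.0), Plagl1 (3.29), Peg3 (3.15), Meg3 (0.647), Cdkn1c (0.39), Dlk1 (0.301), and Zim1. The irradiated library gave Grb10 (43.01), Rian (10.3), Mest (5.33), H19 (3.93), Plagl1 (2.77), Peg3 (2.04), Meg3 (0.866), Dlk1 (0.507), Cdkn1c (0.397), and Zim1 (0.0397), so that H19 and Mest stood in the opposite order, as did Dlk1 and Cdkn1c. How far neighbours in these orders differ beyond the spread between cultures cannot be given, since there is no spread to set them against. The levels also rest on the gene lengths in the table, which run from 1.938 kb for Cdkn1c to 15.24 kb for Meg3. Rian was listed at 3.968 kb, while its annotated exons in GENCODE M21 cover 18.234 kb.

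**Figure D1:**
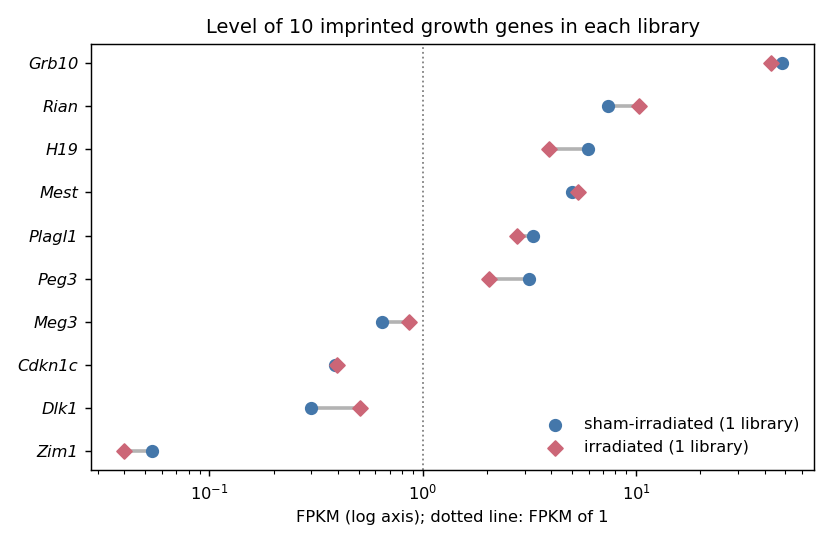
FPKM on a logarithmic axis of the 10 imprinted growth genes, with 1 circle for the sham and 1 diamond for the irradiated library. Grb10 lies near 48.07 and 43.01, and 4 genes lie under the dotted line at an FPKM of 1 in both libraries.

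An FPKM of 1 in at least 1 library was reached by 6 of the 10 members, Grb10, Rian, H19, Mest, Plagl1, and Peg3, and by 11253 of all genes. Differences between the libraries are given as irradiated minus sham on the log2(FPKM + 0.1) scale of the deposited values, which shrinks the differences of low genes. Of these 6 genes, H19 and Peg3 were lower by at least 0.5, a 1.41-fold difference, and none was higher by as much. Among all genes that reached the same level, 5.75% differed by at least 0.5, 1.44% lower and 4.31% higher, so 2 of 6 lower genes stand beside a small background share, in a list too short to read more from it. None of the 6 differed by 1, as 1.16% of all such genes did. The median difference of the 6 was -0.20 and that of all 11253 genes was 0.02. Both calls end on the log2(FPKM + 1) scale, where H19 stood at -0.49 and Peg3 at -0.45. With the level replaced by at least 40 fragments over both libraries, a rule chosen after seeing the data, 9 of the 10 members and 12856 genes were kept, and Dlk1 joined as higher by at least 0.5. The member median was then 0.02, the same as that of all such genes, and it was -0.06 with all 10 members. Of all such genes 7.09% differed by at least 0.5, 5.44% higher and 1.64% lower, and 0.996% by at least 1. Zim1, with 11 fragments in all, was outside both rules.

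An exact 95% interval of the ratio of fragments, which covers counting error only, lay above 0 for Dlk1, Meg3, and Rian and below 0 for H19, Peg3, Plagl1, and Grb10. It included 0 for Mest, Cdkn1c, and Zim1. Of the 12856 genes with at least 40 fragments, 23.1% had an interval above 0 and 15.9% below 0, which shows how often these depths give an interval on 1 side of 0. Both directions were found among genes expressed from either parental copy. Of the 6 members known for maternal expression, 2 had an interval above 0 (Meg3, Rian), 2 below 0 (H19, Grb10), and 2 included 0 (Cdkn1c, Zim1). Of the 4 known for paternal expression, 1 lay above 0 (Dlk1), 2 below 0 (Peg3, Plagl1), and 1 included 0 (Mest).

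**Figure D2:**
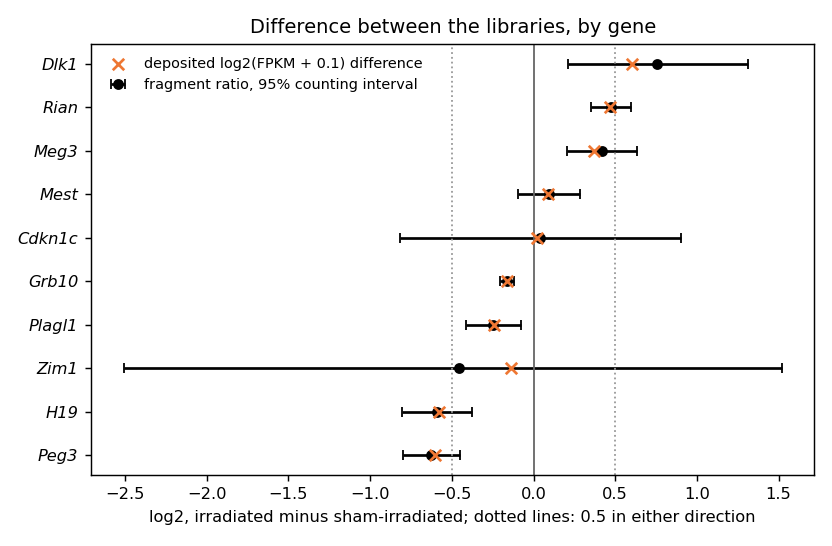
Difference between the libraries for each gene on a log2 scale, with black points and bars for the fragment ratio and its 95% counting interval and crosses for the deposited log2(FPKM + 0.1) difference. Intervals of Dlk1, Rian, and Meg3 lie to the right of 0 and those of Grb10, Plagl1, H19, and Peg3 to the left, and the bar of Zim1, on 6 and 5 fragments, runs from -2.51 to 1.52.

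The 3 members whose interval lay above 0 belong to 1 imprinted cluster on chromosome 12. In the table's coordinates, which follow mm10 (GRCm38), Dlk1 runs from 109452823 to 109463336, Meg3 from 109540996 to 109571729, and Rian from 109603945 to 109661711, all on the plus strand. Dlk1 is transcribed from the paternal copy and encodes a membrane protein with EGF-like repeats, also called Pref-1, that holds back the conversion of precursors into fat cells. Meg3 and Rian are long noncoding RNAs transcribed from the maternal copy of the same cluster. Since these genes of 1 cluster had the same direction, the RefSeq sequences from 250 bases before to 50 bases after their starts are given here, each 300 bases on the plus strand of GRCm38.p6. Capitals mark TATAAA, the TATA box, and TGCCGC, the motif that the imprint keeper ZFP57 recognises when methylated, each searched on both strands.
Dlk1, chr12:109452573-109452872: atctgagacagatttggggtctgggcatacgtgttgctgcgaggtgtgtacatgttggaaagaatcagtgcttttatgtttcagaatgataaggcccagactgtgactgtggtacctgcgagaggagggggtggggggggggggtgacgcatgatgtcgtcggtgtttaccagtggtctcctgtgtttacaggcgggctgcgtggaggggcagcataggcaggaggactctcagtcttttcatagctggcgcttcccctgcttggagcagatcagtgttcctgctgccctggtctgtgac
Meg3, chr12:109540746-109541045: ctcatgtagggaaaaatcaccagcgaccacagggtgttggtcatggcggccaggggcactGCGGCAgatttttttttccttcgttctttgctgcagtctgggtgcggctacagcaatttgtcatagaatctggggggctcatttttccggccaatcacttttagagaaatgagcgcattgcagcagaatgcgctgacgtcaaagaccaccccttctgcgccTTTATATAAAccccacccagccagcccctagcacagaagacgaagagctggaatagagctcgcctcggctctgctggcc
Rian, chr12:109603695-109603994: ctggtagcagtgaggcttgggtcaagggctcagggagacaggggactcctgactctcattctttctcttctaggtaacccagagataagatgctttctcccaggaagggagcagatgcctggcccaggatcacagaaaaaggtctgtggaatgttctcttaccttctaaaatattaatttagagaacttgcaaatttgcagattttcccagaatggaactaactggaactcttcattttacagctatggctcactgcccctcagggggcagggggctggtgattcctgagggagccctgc

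Meg3 was the only one of these 3 windows with a match, with TATAAA found on both strands in overlapping letters just before the start and 1 TGCCGC. Over all 32851 RefSeq windows of this length, 13.6% held TATAAA and 11.6% held TGCCGC. The Meg3 window held 13 CpG pairs, the Dlk1 window 9, and the Rian window 0, beside a median of 7 over all windows. These matches describe the letters only, and no binding or methylation was measured.

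Dlk1 had an FPKM of 0.301 in the sham library, on 44 fragments, and of 0.507 in the irradiated library, on 85 fragments. The irradiated library was thus the higher by 1.69-fold, a difference of 0.60 as deposited, with a counting interval of the fragment ratio from 0.21 to 1.32. Both levels were low, since 3 fragments on this gene give an FPKM of 0.0204 and 0.0178, respectively. Beside it, 7 of the 10 mature adipocyte markers had at least 40 fragments over both libraries. Of these 7, the interval lay above 0 for 3 and below 0 for 0, beside 23.1% and 15.9% of all such genes. The intervals of the 3 markers with fewer fragments included 0. The 7 mesothelial markers had a median difference of 1.35, with 6 higher by at least 0.5, beside 5.44% of all such genes. Of the 8 gonadal and germ cell markers 3 were higher and 3 lower, with a median of 0.00. Only 2 of these 8, Star and Inhbb, had at least 40 fragments, and both were higher. The difference was 1.46 for Star, with an interval from 1.306 to 1.695, and 0.33 for Inhbb, from 0.26 to 0.40. The 3 lower ones had intervals that included 0. The part of these lists in the level of Dlk1 was not tested.

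For Meg3, the FPKM was 0.647 on 302 fragments and 0.866 on 462 fragments. The irradiated library was again the higher, by 1.34-fold, with a difference of 0.37 and an interval from 0.21 to 0.63. Its listed length of 15.24 kb, close to the longest annotated transcript of 14.548 kb, makes its FPKM low for the number of fragments.

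Rian, which also contains a series of small nucleolar RNAs in its introns, rested on more fragments than Dlk1 and Meg3. Its FPKM was 7.42 on 900 fragments in the sham and 10.3 on 1432 fragments in the irradiated library, a 1.39-fold higher level after radiation. The difference was 0.47, with an interval from 0.35 to 0.60. The FPKM of Rian was 11.5 times that of Meg3 in the sham and 11.9 times in the irradiated library, so their ratio differed little between the libraries, and the size of this ratio depends on the listed lengths. A further 8 rows of the table lie inside Rian and held 93 and 110 fragments in sum, nearly all of them in DQ267101 (90 and 107 fragments, a difference of 0.05), which the counting, whose rules no source used here gives, could have shared with it.

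For the other named genes of the chromosome 12 cluster, the intervals included 0 and no direction was shown. Mirg, a noncoding microRNA host downstream of Rian and also maternally expressed, had 19 and 14 fragments, and its interval ran from -1.74 to 0.44. Rtl1, a paternally expressed gene derived from a retrotransposon, had 5 and 4 fragments. Dio3, which encodes the deiodinase that inactivates thyroid hormone and lies at the far end of the cluster, had an FPKM of 9.22 and 8.78, on 526 and 573 fragments, with an interval from -0.24 to 0.10. Begain, at the other end, had 47 and 52 fragments with a difference of -0.04. No difference was detectable for any of these 4 genes at this depth, nor for Dio3os, the antisense RNA of Dio3, named after its values were seen, with 52 and 42 fragments. Whether the members differ from Mirg or Dio3 could not be tested with 1 library per condition.

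**Figure D3:**
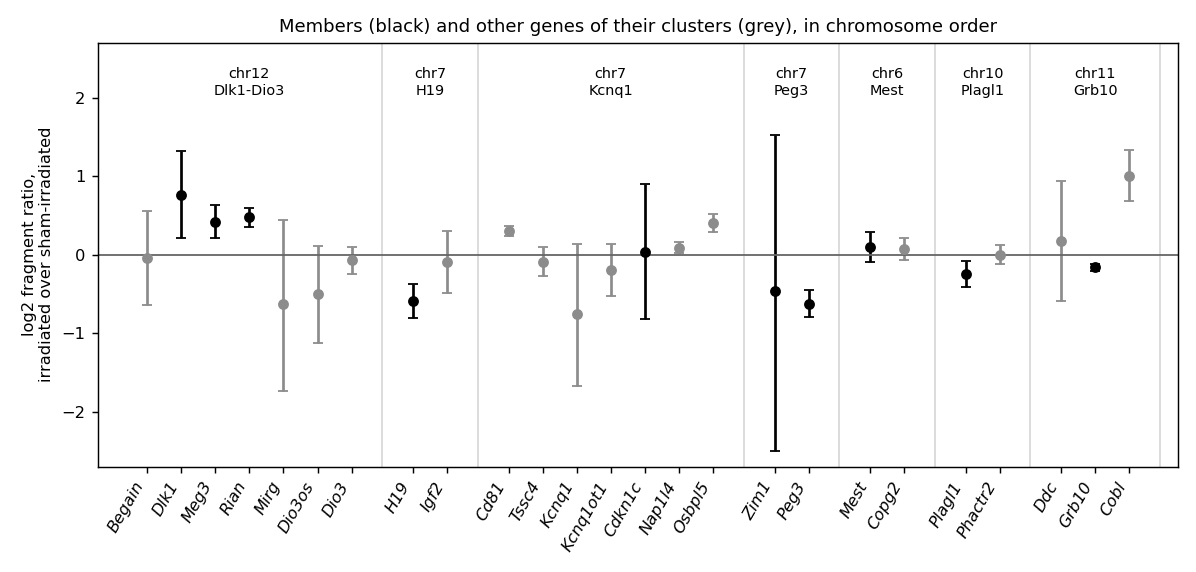
Log2 fragment ratio of irradiated over sham with 95% counting intervals, for the 10 members in black and other genes of their clusters in grey. The grey genes had at least 30 fragments over both libraries. The row DQ267101 inside Rian, with 90 and 107 fragments and a difference of 0.05, is not drawn. Genes of a cluster stand in chromosome order, and Dlk1, Meg3, and Rian lie above 0 while Dio3, with an interval from -0.24 to 0.10, does not.

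The 2 members furthest below their sham level lie in separate regions of chromosome 7. H19 (142575530 to 142578146, minus strand) is a noncoding RNA transcribed from the maternal copy that restrains growth before birth and carries miR-675. Its FPKM was 5.92 in the sham library, on 413 fragments, and 3.93 in the irradiated library, on 314 fragments. The irradiated library was the lower, by 1.51-fold, with a difference of -0.58 and an interval from -0.81 to -0.38. The row of the miR-675 hairpin had no fragments in either library. Igf2, the paternally expressed growth factor that shares enhancers with H19 and whose span lies 72.6 kb from it, had an FPKM of 0.765 and 0.718 on 106 and 114 fragments, a difference of -0.08 with an interval from -0.48 to 0.31. The FPKM of H19 was 7.74 times that of Igf2 in the sham and 5.47 times in the irradiated library. Ins2, the next gene of the cluster, had no fragments.

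Peg3 (6705960 to 6730419, minus strand) encodes a zinc finger protein expressed from the paternal copy and found in stem and progenitor cells of many tissues. Its level was 3.15 in the sham and 2.04 in the irradiated library, in FPKM, on 643 and 477 fragments. The irradiated library was lower by 1.54-fold, with a difference of -0.60 and an interval from -0.80 to -0.45. Its RefSeq window, shown because of this difference, held 13 CpG pairs and neither motif. It is written 5′ to 3′ on the minus strand of GRCm38.p6.
Peg3, chr7:6730370-6730669: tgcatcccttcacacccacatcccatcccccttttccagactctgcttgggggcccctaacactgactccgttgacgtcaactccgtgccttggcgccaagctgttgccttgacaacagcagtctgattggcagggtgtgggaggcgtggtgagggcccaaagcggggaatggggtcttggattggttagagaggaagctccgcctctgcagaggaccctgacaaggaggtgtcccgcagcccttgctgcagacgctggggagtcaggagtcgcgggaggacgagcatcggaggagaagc

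Beside the lower levels of H19 and Peg3, 5 of the 10 progenitor and fibroblast markers were lower, among them Pi16 (-0.55) and Col1a1 (-0.44). The other 5 were higher, among them Dpp4 (0.44) and Thy1 (0.40), and the median of the list was -0.03. The interval lay below 0 for 5 of the 10 and above 0 for 3, beside 17.4% and 23.8% of all genes at an FPKM of 1. The part of these markers in the result was not tested. Zim1 (6675443 to 6696432, minus strand), a maternally expressed zinc finger gene 9.53 kb from Peg3, had 6 and 5 fragments, and no difference was detectable at this depth. The table's span for Peg3 ends 2068 bases short of the GENCODE M21 gene and that for Zim1 4174 bases short, at the 3′ end in both cases, and fragments there may not have been counted. Usp29, Zim3, and the antisense RNA Peg3os, from the same cluster, had at most 1 fragment in a library.

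Cdkn1c (chromosome 7, 143458339 to 143461050, minus strand) encodes p57, a maternally expressed inhibitor of cyclin-dependent kinases that stops cell division in the embryo. It had FPKM values of 0.39 (sham) and 0.397 (irradiated), on 23 and 27 fragments. The libraries were thus at almost the same level, but the interval, from -0.82 to 0.91, leaves room for a difference of more than 1.41-fold either way. Its relative Cdkn1a, the p53-induced inhibitor p21, had 131 times the FPKM of Cdkn1c in the sham and 312 times in the irradiated library. Of 14 other inhibitors, cyclins, and kinases of the cell cycle, 2 were higher by at least 0.5 and 0 lower, beside 4.31% and 1.44% of all genes at an FPKM of 1. The largest difference was that of Cdkn1a, at 1.27, while Cdk4, the most abundant, was at -0.07.

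In the cluster around Cdkn1c, the genes that reach high levels are broadly expressed and known for imprinting mainly in the placenta. Cd81, a membrane protein of the tetraspanin family, had an FPKM of 77.07 and 94.9, a difference of 0.30 with an interval from 0.24 to 0.36. Osbpl5, a lipid transfer protein, had 8.47 and 11.2, a difference of 0.40 with an interval from 0.29 to 0.52. For Nap1l4 the difference was 0.09 and for Tssc4 -0.09. Kcnq1ot1, the paternal noncoding RNA that silences the cluster, had 151 fragments in each library with a difference of -0.07, and Kcnq1 had 28 and 19 fragments with an interval that included 0. Kcnq1ot1 lies within Kcnq1 on the other strand. Phlda2, Ascl2, Slc22a18, Tspan32, and Th had at most 15 fragments in a library.

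Grb10 (chromosome 11, 11930499 to 12037420, minus strand) encodes an adaptor that binds the insulin and IGF-1 receptors and dampens their signal, and it is expressed from the maternal copy in most tissues. Its FPKM was 48.07 and 43.01, on about 8517 and 8721 fragments. The irradiated library was lower by 1.12-fold, a difference of -0.16, and the depth gave a narrow interval, from -0.20 to -0.12. Its start in RefSeq, at the same position as in the table, lies in a window with 45 CpG pairs, more than in almost all promoters. This window held 1 TGCCGC. Windows of Zim1 and, at starts other than the listed ones, of Plagl1 and Mest also held that motif. On either side of Grb10, Ddc, the aromatic amino acid decarboxylase, had 28 and 36 fragments with a difference of 0.14, and Cobl, an actin nucleator, had an FPKM of 0.478 and 0.957 on 114 and 261 fragments. The difference of Cobl was 0.87 with an interval from 0.68 to 1.33 for the fragment ratio, opposite in direction to that of Grb10.

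A list of insulin and IGF receptors and adaptors, which includes relatives of Grb10 and the ligand gene Igf1, held 9 genes. Of these 9, 7 reached an FPKM of 1, 4 of them higher and 3 lower. None of the 7 differed by 0.5, beside 5.75% of all genes at this level, in a list too short to read more from it. The interval lay above 0 for 3 and below 0 for 2, beside 23.8% and 17.4% of all such genes. Nedd4, a ubiquitin ligase that binds Grb10, was the most abundant, with an FPKM of 242.1 and 216.7 and a difference of -0.16, the same as that of Grb10. Irs2, a docking protein of the insulin receptor, had the largest difference, at 0.28 with an interval from 0.07 to 0.51. For the insulin receptor gene Insr, named after its values were seen, the difference was -0.05, with an interval from -0.17 to 0.06. Grb14, a relative of Grb10 also named after its values were seen, had an FPKM of 0.474 and 0.685, and Grb10 was 101 times and 62.8 times as high.

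Plagl1 (chromosome 10, 13060504 to 13131695, plus strand), a paternally expressed zinc finger transcription factor that slows division and regulates other imprinted genes, had an FPKM of 3.29 and 2.77, on 593 and 572 fragments. The irradiated library was the lower, by 1.19-fold, with a difference of -0.24 and an interval from -0.41 to -0.08. Its non-imprinted relative Plagl2 had a difference of 0.09, and the FPKM of Plagl1 was 1.06 times that of Plagl2 in the sham and 0.836 times in the irradiated library. Plag1, the other relative, was under an FPKM of 1. Phactr2, a neighbour of Plagl1, had an FPKM of 3.98 in both libraries.

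Mest (chromosome 6, 30733506 to 30748466, plus strand), a paternally expressed member of the hydrolase family whose level is known to follow fat-cell enlargement in mice, carries miR-335. Its FPKM was 5.0 in the sham and 5.33 in the irradiated library, on 422 and 515 fragments. The difference of 0.09 had an interval from -0.10 to 0.28, so none was detectable at this depth. Copg2, a coat protein gene whose 3′ end overlaps that of Mest on the other strand, had a difference of 0.07 with an interval from -0.07 to 0.21. The labels name a stranded kit, but no source used here says whether the counting used strand. Klf14 and Cpa4, from the same cluster, had at most 1 fragment in a library.

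A wider list of 70 other imprinted genes was measured, of which 33 reached an FPKM of 1. Among these, 15 were higher, 15 lower, and 3 equal, with a median difference of 0.00 beside 0.02 for all genes. The counting interval lay above 0 for 10 and below 0 for 3 of the 33, beside 23.8% and 17.4% of all genes at this level. Of the 33, 1 differed by at least 0.5, beside 5.75% of all genes at this level, a share too close to read more from. This was Slc38a4, an amino acid transporter known for paternal expression, with an FPKM of 1.93 on 243 fragments in the sham and 0.701 on 101 fragments in the irradiated library. Its difference was -1.34 with an interval from -1.81 to -1.12, larger in size than that of any of the 10 members.

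After Slc38a4, the largest downward differences among these genes were those of Chrac1 (-0.33), Peg12 (-0.22), Peg10 (-0.16), and Commd1 (-0.14). The intervals of Chrac1, which encodes a subunit of a chromatin remodelling complex, and Peg10, a gene derived from a retrotransposon, lay below 0, while those of Peg12 and Commd1 included 0. The largest upward differences were those of Osbpl5 and Cd81, described above, and of Pon2 (0.30), Zrsr1 (0.27), and Pon3 (0.26), whose intervals all lay above 0. Pon2 and Pon3 are neighbouring paraoxonase genes, which encode enzymes that limit lipid oxidation.

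**Figure D4:**
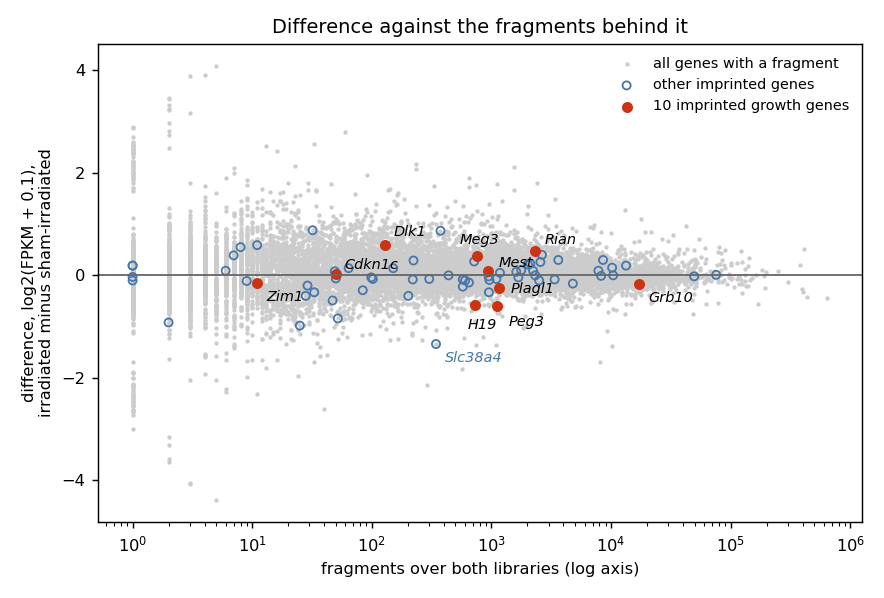
Difference of each gene in log2(FPKM + 0.1) against its fragments over both libraries on a logarithmic axis, with the 10 imprinted growth genes in red, other imprinted genes as blue circles, and all genes with a fragment in grey. The spread of the grey points widens at few fragments, and Slc38a4, at -1.34, lies farther from 0 than any red point.

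A list of genes that set, keep, read, or remove DNA methylation, several of them known for guarding imprints, was also measured. Of 16 listed, 13 reached an FPKM of 1, of which 11 were lower and 2 higher. None of the 13 differed by 0.5, beside 5.75% of all genes at this level. The interval lay below 0 for 8 and above 0 for 1, beside 17.4% and 23.8% of all genes at this level. The gene with an interval above 0 was Zfp57, the zinc finger protein that binds methylated TGCCGC at imprinted regions, with an FPKM of 1.06 and 1.43 on 104 and 161 fragments, a difference of 0.40, and an interval from 0.07 to 0.81. Its partner Trim28, the most abundant of the list, had an FPKM of 76.5 and 73.4 and a difference of -0.06.

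For the Notch pathway, of which the protein of Dlk1 is a noncanonical ligand, 9 of 12 listed genes reached an FPKM of 1. Of these 9, 8 were higher and 1 lower, and the interval lay above 0 for 6 and below 0 for 0, beside 23.8% and 17.4% of all genes at this level. Hes1, a direct Notch target known to restrain differentiation, had the largest difference, 0.52 with an interval from 0.37 to 0.67 and an FPKM of 13.1 and 18.8. It was 1 of the 4.31% of genes at this level that were higher by at least 0.5. Notch2, the most abundant receptor, had a difference of 0.12 with an interval from 0.07 to 0.17. Dlk2, the nearest relative of Dlk1 and named after its values were seen, had 23 and 45 fragments, with a difference of 0.67 and an interval from 0.02 to 1.57.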

How the data were processed

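The authors deposited 1 table of log2 values of FPKM plus 0.1 for 24091 genes, rounded to 2 decimals, with coordinates and the gene length in kb. Per the labels, polyadenylated RNA was prepared with a stranded kit and the genome build was mm10. No aligner, counting method, or annotation was named (not given in the sources used here). The paper that names these data does not describe this experiment. Columns were matched to samples by title, and no other column of sample values was present.

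FPKM was recovered as 2 to the power of the value, minus 0.1. Library totals were found as those making low values whole fragments, and all 1465 and 1488 genes used lay within 0.12 of a whole number. Fragments of abundant genes are approximate because of rounding. Intervals are exact 95% Clopper-Pearson intervals of the fragment ratio per library total, without a pseudocount, and cover counting error only. With 1 library per condition no test was made.

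The members and lists were chosen with earlier results of these data known. Genes named were all 10 members, the genes of their clusters, and the largest differences among other imprinted genes at an FPKM of at least 1. Of these differences, 5 in each direction were taken. Per further list apart from the cell type markers, the largest difference and the most abundant gene were named. The cell type markers named were not picked by this rule. Alternatives were other pseudocounts, filters, thresholds, scalings, and the mean. The recovery was tested on simulated data. Sequences are RefSeq GRCm38.p6, with promoter windows for 8 of 10 members and none for H19 and Cdkn1c, and gene annotation is GENCODE M21. Scripts ran in Python 3.11.15 with pandas 2.3.3, numpy 2.4.6, matplotlib 3.10.9, and SciPy 1.17.1.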

Additional observations from a re-analysis of the deposited data

How the results depend on the processing

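No paired analysis was possible because there was only 1 library per condition, which also left no replicate to leave out. Of 40 recomputed member differences, 39 kept the sign of the deposited one, the exception being Cdkn1c, which centring brought to 0. With log2(FPKM + 1), 3 of them moved beyond their counting interval, to 0.18 for Meg3, 0.21 for Dlk1, and -0.45 for Peg3, because the larger pseudocount shrinks low genes. The number of members past the threshold was 2, both lower, and became 0 with a threshold of 1 and likewise 0 with log2(FPKM + 1). An FPKM minimum of 5 left 1. Without a filter, or with at least 40 fragments, 1 higher member was added. Among the other imprinted genes, 1 was past the threshold, and it was lower. Without a filter this became 8 of 70 (4 higher, 4 lower), beside 1324 higher and 681 lower of all 24091 genes. With at least 40 fragments it became 3 of 47 (1 higher, 2 lower), beside 5.44% higher and 1.64% lower of all such genes. At an FPKM minimum of 5 it became 0. The member median of -0.20 ran from -0.22 (centred) to 0.02 (at least 40 fragments) over the alternatives. The rule of 40 fragments was chosen after seeing the data. Depth limits Zim1 and Cdkn1c most.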

Other observations

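MicroRNA hairpins of the chromosome 12 cluster were almost without fragments. From Dlk1 to Dio3 the table lists 57 hairpins, of which 49 had no fragment in either library, and the others held 4 fragments in all without and 9 with radiation. Polyadenylated RNA holds few such short products, so the values say nothing of mature microRNAs.

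Several imprinted genes with growth roles outside the 10 members, named here after their values were seen, had the following values. Gnas, which encodes the stimulatory G protein alpha subunit, had an FPKM of 83.2 and 82.04, with an interval from -0.05 to 0.01. Dcn, the matrix proteoglycan decorin, which is imprinted in mouse placenta, had 548.6 and 552.5. Ndn, the gene of necdin, a growth suppressor expressed from the paternal copy, had 32.1 and 30.4, with an interval from -0.18 to 0.02. Igf2r, the receptor that clears the growth factor encoded by Igf2, had 21.3 and 24.3 and was the higher after radiation, with an interval from 0.14 to 0.24. Among imprinted noncoding RNAs, Peg13 had 3.08 and 3.04, and Airn, which silences Igf2r on the paternal copy, had 49 and 53 fragments.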
